A study of Mus musculus with 29 samples.

Results

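BAM3 is one of 5 subtypes of border-associated macrophages (BAM) that the authors annotated in single cells of the mouse brain after stroke. Its members were taken from the deposited annotation, as the brain cells with the parent type BAM and the subtype BAM3. The rule gave 240 cells, 16.5% of 1453 BAM and a small part of 55268 annotated brain cells. The other subtypes held 548 cells (BAM1), 470 (BAM2), 139 (BAM4) and 56 (BAM5). BAM3 cells were present in 17 of 18 brain libraries, and 8 libraries held at least 10 of them, 206 cells in all.

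The study profiled sorted brain cells of C57BL/6J mice by Drop-seq, a droplet method that counts RNA in single cells, after stroke or sham surgery. The sort took CD45-high leukocytes, microglia and endothelial cells, so a share of all cells depends on that sort. Each library pooled 4 to 5 hemispheres, and the digestion solution held actinomycin D, an inhibitor of RNA polymerase. Young mice were males of 8 to 10 weeks, with 4 sham libraries at day 2, 4 stroke libraries at day 2 and 4 stroke libraries at day 14. Aged mice were 17 to 20 months old, with 2 sham libraries at day 2 (1 male, 1 female), 3 stroke libraries at day 2 (1 male, 2 female) and 1 female stroke library at day 14. There was no sham library at day 14 for either age among the samples used here. The labels do not say whether replicate libraries came from separate surgeries, so the p-values concern these libraries only.

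Border-associated macrophages line the meninges, the choroid plexus and the spaces around blood vessels, where they take up material with scavenger receptors such as CD206, encoded by Mrc1. They are commonly divided into cells rich in LYVE1, a hyaluronan receptor, and cells rich in MHC class II, the molecules that present peptides to helper T cells. Immediate early genes encode transcription factors and regulators whose RNA rises and decays quickly after a stimulus.

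BAM3 cells had few counts. Their median was 314 counts and 256 genes per cell, against median counts of 763 in BAM1, 601 in BAM2, 805 in BAM4 and 507 in BAM5. Only 17 BAM3 cells (7.08%) reached 800 counts, compared with 46.0% of BAM1 cells. The BAM3 median lay below that of the other BAM in 17 of 17 libraries, from 165 to 565 counts per library against 279 to 1984. The median share of mitochondrial counts was 2.01% in BAM3, 2.25% in BAM1, 1.64% in BAM2, 1.09% in BAM4 and 1.65% in BAM5. Within libraries it was higher in BAM3 than in the other BAM in 11 of 17, with medians from 0.299% to 4.85% in BAM3 and from 0.220% to 3.78% in the other BAM. Fewer molecules captured and less RNA per cell cannot be told apart in these counts. The largest part of the BAM3 RNA came from 1 library: replicate 4 of young stroke at day 2 held 31 cells and 38.9% of all BAM3 counts, and its deepest cell had 6927 counts.

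**Figure D1:**
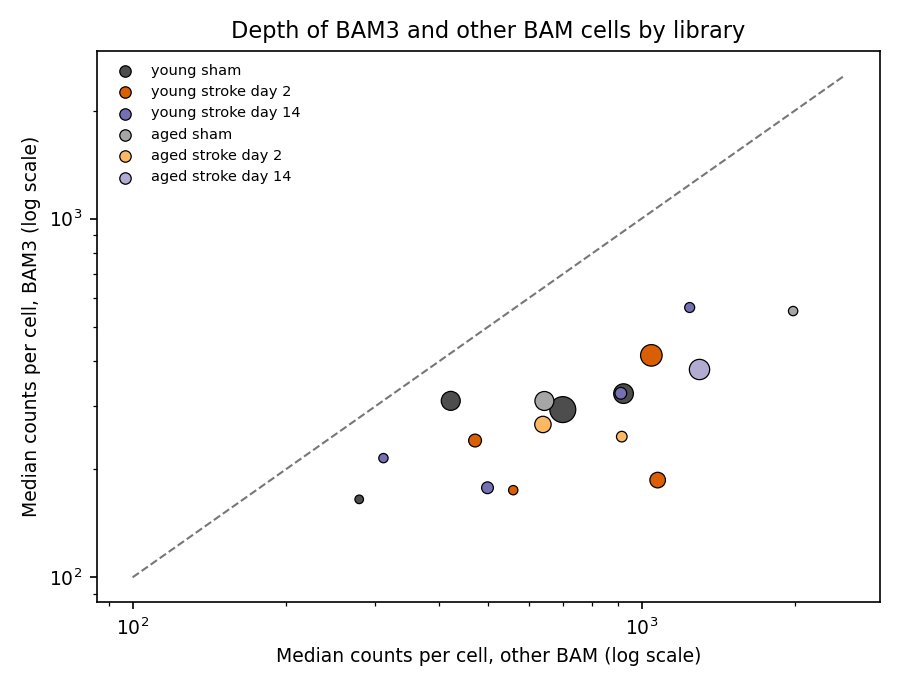
Median counts per BAM3 cell (y axis, log scale) against median counts per cell of the other BAM (x axis, log scale) in the 17 libraries with a BAM3 cell; point size grows with the number of BAM3 cells, colour marks the group and the dashed line is equality. All 17 points lie below the line.

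The BAM3 libraries were small, and 2 stood apart. The summed BAM3 counts of the 8 libraries with at least 10 cells ran from 4853 to 49247, so that 3 counts corresponded to 60.9 to 618 CPM, the unit of expression used below, which scales the summed counts of each library to the same total. In the aged stroke library of day 14, Apoe, which encodes a lipid carrier made in quantity by these macrophages, was at 3484 CPM in BAM3 and 898 CPM in the other BAM, while microglia of the same library held 30982 CPM. The other 7 libraries had 16235 to 78793 CPM of Apoe in BAM3. The summed core BAM genes were at 6810 CPM in BAM3 of the aged day 14 library and at 19256 to 29358 CPM in the other 7. In replicate 4 of young sham, 43 of 52 BAM were BAM2 and 1 was BAM3. Of 55174 distinct cell barcodes, 91 occurred in more than 1 library, and 2 BAM3 cells carried one.

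The markers of the class were present. Mrc1 was at 1616, 3626 and 8505 CPM (lowest, median and highest of the 8 libraries) in BAM3 and at 992, 4092 and 5592 CPM in the other BAM of the same libraries. Pf4, a platelet-type chemokine that marks border macrophages, was at 1009, 4370 and 9859 CPM in BAM3 and at 1922, 3505 and 5359 CPM in the other BAM. The ranges overlapped for both genes. Microglia of the 8 libraries held at most 37.6 CPM of Mrc1. A count of Mrc1 was found in 142 of 206 BAM3 cells and one of Pf4 in 126 of 206.

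Markers of other cell types were low or at 0 in most lists. The summed levels of the mural, neuronal and erythroid marker lists were 0 CPM in BAM3 of all 8 libraries. The fibroblast list reached 19.9 CPM, the T cell list 56.6 CPM, the neutrophil list 164 CPM and the oligodendrocyte list 165 CPM at most. Higher maxima were found for the astrocyte (264 CPM), dendritic (481 CPM) and endothelial (493 CPM) lists. The microglia list, part of which macrophages share, was at 768 to 4333 CPM in BAM3 and at 490 to 3049 CPM in the other BAM, with Sall1 and Slc2a5 at 0 in BAM3. The monocyte list was at 0 to 682 CPM in 7 libraries and at 1019 CPM in young stroke day 2 replicate 4, where the other BAM held 405 CPM. Choroid plexus markers reached 1345 CPM in 1 library, replicate 1 of young sham, all of it Ttr, the transthyretin transcript of choroid plexus epithelium, while Folr1, Kl and Kcnj13 were at 0 there. Microglia of that library held 187 CPM of Ttr.

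Differences between BAM3 and the other BAM are described without a test, because the subtypes were formed from the same cells and genes. For each gene the log2 ratio of CPM, with 10 CPM added to both sides, was averaged over the 8 libraries. Of the 2067 genes averaging 100 CPM or more on either side, 310 (15.0%) were more than 2-fold lower in BAM3 and 10 (0.484%) more than 2-fold higher, with the same direction in at least 6 libraries. This imbalance moved with depth. The median ratio of all genes was -0.48, and 1580 of the 2067 genes had no count in BAM3 of at least 1 library. The median was 0.01 when only cells of at most 500 counts were compared on both sides. Ratios of the mean CPM, whose median over all genes was 0.08, put 113 genes lower and 35 higher. List medians below are on the first scale, against -0.48, and those from shallow cells stand against 0.01. A gene averaging under 100 CPM on 1 side entered only through the other side, so its direction was nearly fixed by this filter.

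The core border macrophage genes stayed within 2-fold of the other BAM as a whole. None of the 12 core BAM genes passed 2-fold in either direction, where 0.484% of all genes passed upward. Their median log2 ratio of 0.06 (0.32 in shallow cells) lay above that of all genes, -0.48 (0.01 in shallow cells). Their sum was higher in BAM3 in 6 of 8 libraries. The mixture of the other BAM hides a difference between subtypes: the median was 2.31 against BAM2 (-0.07 over all genes) and -0.43 against BAM1 (-0.41 over all genes). F13a1, encoding coagulation factor XIII A, averaged 1728 CPM ± 788 (SD, n = 8 libraries) in BAM3 and 1271 CPM ± 494 in the other BAM. Dab2, an endocytic adaptor, averaged 2259 CPM ± 901 against 1852 CPM ± 611. The complement genes C1qa, C1qb and C1qc, subunits of the recognition molecule C1q, averaged 5168, 6632 and 6252 CPM in BAM3 against 4708, 6243 and 5228 CPM. These differences were smaller than 1 SD of the levels over libraries, which is not the spread of the difference within libraries. C1qa was higher in BAM3 in 6 of the 8 libraries and lower in 2. None of 12 lysosomal genes passed 2-fold (median -0.02, 0.45 in shallow cells). The 9 measured lipid handling genes had a median of 0.12 (0.95 in shallow cells) and also held none past 2-fold. The medians of these lists also lay above that of all genes. The lysosomal and the lipid handling sums were each higher in BAM3 in 7 of 8 libraries.

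**Figure D2:**
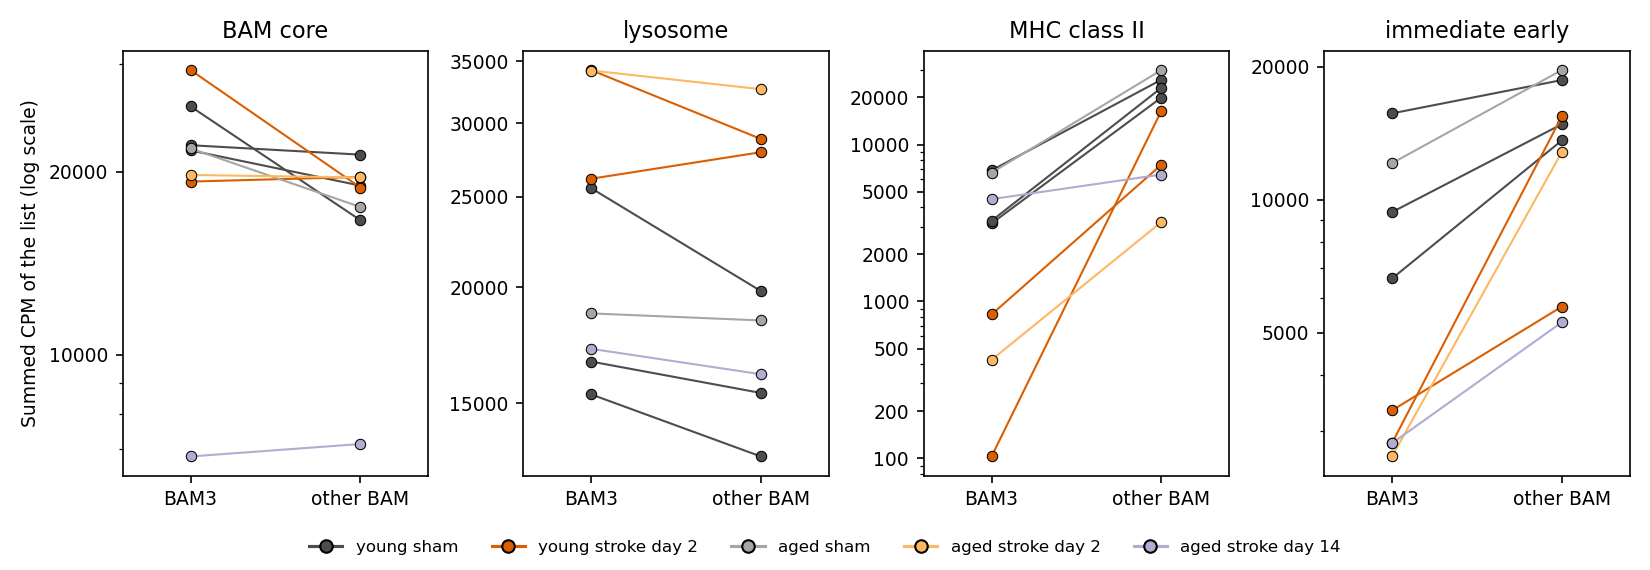
Summed CPM of 4 gene lists (y axes, log scale, each with its own range) in BAM3 and in the other BAM of the same library, joined by a line, for the 8 libraries with at least 10 BAM3 cells; colour marks the group. Core BAM sums are higher in BAM3 in 6 of 8 libraries, and MHC class II and immediate early sums are lower in BAM3 in 8 of 8.

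Lyve1 was far higher in BAM3 than in BAM2. In the pooled libraries Lyve1 stood at 1844 CPM in BAM3, 1463 CPM in BAM1, 898 CPM in BAM4, 282 CPM in BAM5 and 24.6 CPM in BAM2. Lyve1 was at 86.9 to 3307 CPM in the 8 BAM3 libraries, the highest in young stroke day 2 replicate 4 and the lowest in the aged stroke library of day 14. Cd163, the haemoglobin scavenger receptor, and Folr2, a folate receptor, were at 619 and 547 CPM in BAM3, 918 and 526 CPM in BAM1, and 71.5 and 59.1 CPM in BAM2. The pooled order of BAM3 and BAM1 rested on young stroke day 2 replicate 4: over the 8 libraries Lyve1 averaged 1194 CPM in BAM3 and 1549 CPM in BAM1, and Folr2 374 and 569 CPM. At day 14 the 4 young libraries, with 17 BAM3 cells, had no count of Lyve1, where 3 counts correspond to 349 CPM over the group. None of the 8 measured Lyve1-high genes passed 2-fold between BAM3 and the other BAM as a whole. Clec10a, a lectin of tissue macrophages, was lower in BAM3 in 7 of 8 libraries, with 165 CPM ± 177 against 312 CPM ± 207.

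MHC class II genes were lower in BAM3 than in the other BAM as a whole. All 6 measured genes of the list were more than 2-fold lower, with a median log2 ratio of -3.05 (-2.98 in shallow cells, -3.26 without the aged stroke library of day 14 and -2.49 without young stroke day 2 replicate 4). The share of lower genes over all genes was 15.0%. Cd74, the invariant chain that escorts MHC class II, was at 43.3, 1396 and 3036 CPM (lowest, median, highest) in BAM3 and at 1600, 8330 and 11726 CPM in the other BAM. H2-Aa, H2-Ab1 and H2-Eb1, the chains of the I-A and I-E molecules, averaged 605, 518 and 391 CPM in BAM3 against 2763, 3867 and 2159 CPM. Cd74, H2-Aa and H2-Eb1 were lower in BAM3 in 8 of 8 libraries and H2-Ab1 in 7 of 8. Ciita, the master regulator of these genes, had no count in BAM3.

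The gap was a gap to BAM2. In the pooled libraries Cd74 reached 27346 CPM in BAM2, compared with 1154 CPM in BAM3, 1305 CPM in BAM1, 721 CPM in BAM4 and 1332 CPM in BAM5. The list median was -4.65 against BAM2 (7 libraries) and 0.40 against BAM1 (8 libraries), where the median of all genes was -0.07 and -0.41. Dendritic cells, the highest other type, held 23001 CPM of Cd74, and microglia held at most 126 CPM in the 8 libraries. The part of RNA from outside the cell in the low BAM3 values was not tested.

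The stretches before the start sites of 2 of these genes are shown because both fell with the group and because class II promoters are known for a CCAAT element. They are the 250 bases upstream of the RefSeq start in build GRCm38.p6, written 5′ to 3′ along the gene's strand, with CCAAT or its reverse complement ATTGG in capitals.
H2-Aa, chr17:34287824-34288073, minus strand: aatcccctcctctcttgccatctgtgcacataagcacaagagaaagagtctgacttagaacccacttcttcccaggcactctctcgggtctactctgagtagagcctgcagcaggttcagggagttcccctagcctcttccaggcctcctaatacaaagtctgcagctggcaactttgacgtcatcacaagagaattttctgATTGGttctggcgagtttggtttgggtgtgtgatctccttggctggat
H2-Eb1, chr17:34305617-34305866, plus strand: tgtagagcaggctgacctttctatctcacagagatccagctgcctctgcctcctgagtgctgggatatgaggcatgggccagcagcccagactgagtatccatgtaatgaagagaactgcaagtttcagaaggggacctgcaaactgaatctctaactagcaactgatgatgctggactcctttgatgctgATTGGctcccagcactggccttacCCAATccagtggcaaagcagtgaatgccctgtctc
H2-Aa held 1 match, 43 bases before the start, and H2-Eb1 held 2, at 54 and 30 bases. By symbol, 4 of the 7 listed genes matched the promoter table, and 4 of 4 held the motif, against 33.8% of 32851 promoters of that length. A listed gene counted if any of its promoters held the motif, while the 33.8% counts each promoter singly, so the 2 shares differ in unit. A match of letters describes the sequence and is no measurement of binding.

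Immediate early genes formed the other low group. Of the 14 genes, 11 were more than 2-fold lower in BAM3 and none higher, with a median log2 ratio of -1.96 (-2.42 in shallow cells, -2.08 without the aged stroke library of day 14). Over all genes 15.0% were lower and only 0.484% higher. Unlike MHC class II, the list was also low against BAM1, with a median of -1.80. The gap to BAM4 was smaller over the list, with a median of -0.81 (3 libraries, -0.16 over all genes). Pooled Ier2 was at 255 CPM in BAM3 and BAM4, and pooled Egr1 at 200 CPM in BAM3 and 115 CPM in BAM4. Within libraries both genes were higher in BAM3 than in BAM4 in 0 of 3. Their mean log2 ratios there were -2.95 and -3.07. Ier2 was at 0, 111 and 432 CPM (lowest, median, highest) in BAM3 and at 166, 802 and 937 CPM in the other BAM, lower in 8 of 8 libraries. Egr1, a zinc finger transcription factor, averaged 218 CPM ± 301 against 695 CPM ± 365, and Atf3, a stress-induced factor, 310 CPM ± 398 against 901 CPM ± 454, each lower in 8 of 8. Fosb, a partner of Jun proteins in AP-1, averaged 156 CPM ± 192 against 623 CPM ± 480 and was lower in 7 of 8.

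Fos, Jun and Klf6 were the 3 genes of the list that stayed within 2-fold on average. Fos was at 277, 1413 and 2690 CPM in BAM3 against 933, 2271 and 3730 CPM, lower in 8 of 8 libraries. Jun averaged 2085 CPM ± 1720 against 2592 CPM ± 1413 and was lower in 5 of 8. Zfp36, whose protein promotes decay of cytokine mRNA, averaged 676 CPM ± 674 against 1577 CPM ± 769.

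The upstream stretches of 2 genes of this list are shown because their low levels in BAM3 went with the group and because many immediate early promoters carry the CRE-type core TGACG. The capitals mark TGACG or its reverse complement CGTCA, with build and orientation as above.
Atf3, chr1:191183334-191183583, minus strand: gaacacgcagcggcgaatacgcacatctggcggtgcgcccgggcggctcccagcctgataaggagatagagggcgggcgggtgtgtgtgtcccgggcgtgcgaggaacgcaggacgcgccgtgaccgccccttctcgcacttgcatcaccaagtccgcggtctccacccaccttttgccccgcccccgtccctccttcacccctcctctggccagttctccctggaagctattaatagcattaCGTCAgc
Nr4a1, chr15:101266596-101266845, plus strand: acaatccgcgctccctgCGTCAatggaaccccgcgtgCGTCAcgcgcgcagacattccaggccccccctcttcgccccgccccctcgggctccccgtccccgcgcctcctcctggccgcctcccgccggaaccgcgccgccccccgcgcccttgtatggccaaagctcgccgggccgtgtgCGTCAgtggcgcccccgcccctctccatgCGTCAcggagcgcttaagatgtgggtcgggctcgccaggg
Atf3 held 1 match, 2 bases before the start, and Nr4a1, an orphan nuclear receptor, held 4, between 228 and 35 bases before it. Of 14 listed genes, 12 matched the table by symbol, and 8 of these held the motif, against 17.8% of all promoters. As above, the genes were counted by symbol and the 17.8% by promoter. Nr4a1 rested on 3.54 BAM3 counts in all and averaged 43.7 CPM against 220 CPM. It passed the 100 CPM filter only through the other BAM.

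Cytokines and part of the chemokines were low as well. All 4 measured genes of the inflammatory cytokine list, not all of which encode cytokines, were more than 2-fold lower (median -2.63, -2.26 in shallow cells). Il1b, encoding interleukin-1 beta, was at 0, 259 and 1234 CPM in BAM3 and at 320, 1689 and 5119 CPM in the other BAM. Against BAM1 the Il1b difference was -0.47 on the log2 scale, since Il1b was mainly a BAM2 and BAM5 transcript (7439 and 6665 CPM pooled, against 528 CPM in BAM1 and 291 CPM in BAM3). Tnf, Osm and Nfkbia, the last of which encodes an inhibitor of NF-kappaB, made up the rest. Tnf, at 43.9 CPM in BAM3 and 209 CPM in the other BAM, passed the 100 CPM filter only through the other BAM. Of 15 chemokine genes, 8 were lower and none higher, with a median of -1.50 (-1.61 in shallow cells). For this list and the cytokine list, the shares over all genes were 15.0% lower and 0.484% higher. Ccl4 and Cxcl2, which draw lymphocytes and neutrophils, averaged 329 and 821 CPM in BAM3 against 1214 and 2367 CPM. For Ccl4 this was mainly a gap to BAM2 (3107 CPM pooled, against 541 CPM in BAM1 and 268 CPM in BAM3), and the log2 ratio to BAM1 was -1.36 over 8 libraries and 1.11 in the shallow cells of 3. Ccl12 was within 2-fold, at 1986 CPM ± 1369 against 2244 CPM ± 1156.

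In the other lists fewer genes passed 2-fold, and 15.0% of all genes were lower, so 1 of 8 or 2 of 11 is near that background. Isg15 and Irf7 were lower among 7 interferon response genes (median -0.71, -0.03 in shallow cells). S100a6, Vim and Tmsb10 were lower among 6 genes of the S100a, annexin and motility list (median -1.55, -0.97 in shallow cells). The median of that list was -2.66 against BAM2 and -0.26 against BAM1, where the median of all genes was -0.07 and -0.41. It was thus mainly a gap to BAM2. Hmox1, which degrades haem, and Slc40a1, the iron exporter ferroportin, were lower among 8 iron and haem genes (median -0.02, 0.28 in shallow cells). Cebpb and Il10ra were lower among 11 macrophage factor and receptor genes (median -0.34, -0.24 in shallow cells). Of 8 genes of damage-associated activation, Igf1 was higher and Clec7a lower (median 0.14, 0.07 in shallow cells). C3ar1, the receptor of complement fragment C3a, was the 1 gene of 8 lower in the complement list (median -0.51, -0.05 in shallow cells). Ccr2 was lower in BAM3 among 2 monocyte genes (median -2.03, -2.36 in shallow cells). The monocyte median was -2.87 against BAM2 and 0.28 against BAM1.

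The genes chosen for the largest ratios repeated these groups on the low side. The 10 lowest were Ier2, Ccl4, Egr1, Fosb, Sertad1, Ifrd1, Phlda1, Nfkbiz, Atf3 and Tnf. Sertad1, Phlda1 and Tnf rested on 3.85, 4.79 and 4.94 BAM3 counts in all, with no count in 6, 6 and 4 of the 8 libraries. Like Ifrd1 (71.5 CPM in BAM3, 329 CPM in the other BAM), they averaged under 100 CPM in BAM3 and entered only through the other BAM. Nfkbiz, an atypical inhibitor of NF-kappaB, averaged 757 CPM ± 1055 in BAM3 and 1934 CPM ± 1433 in the other BAM. The high side was thin. Igf1, encoding insulin-like growth factor 1, was higher in BAM3 in 8 of 8 libraries, at 136, 475 and 1146 CPM against 56.4, 225 and 355 CPM, a mean log2 ratio of 1.18 ± 0.62 (SD, n = 8). Cops9, a subunit of the COP9 signalosome, was also higher in 8 of 8, with 347 CPM ± 134 against 174 CPM ± 74.2. In shallow cells (7 libraries) the mean log2 ratio was 2.66 for Igf1 and 0.13 for Cops9. Against BAM1 alone the Igf1 ratio was 0.74, higher in 7 of 8 libraries, and against BAM2 it was 4.68, higher in 6 of 7. Pooled Igf1 was at 437 CPM in BAM3, 384 CPM in BAM1, 220 CPM in BAM5, 127 CPM in BAM4 and 26.3 CPM in BAM2. The gap was thus widest to BAM2. Igf1 rested on 55.2 BAM3 counts and Cops9 on 44.0. St7l headed the 20 highest with 8.51 counts in all, and Arhgef12 followed with 10.5.

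The place of BAM3 among the BAM was then compared between groups. The share of BAM was 23.4%, 16.7%, 15.8% and 1.92% in the 4 young sham libraries, 28.6%, 25.8%, 2.11% and 17.0% at day 2, and 3.90%, 30.0%, 11.5% and 3.08% at day 14. The group means were 14.4% ± 9.0, 18.4% ± 11.9 and 12.1% ± 12.5 (SD, n = 4), and the groups overlapped. Day 2 exceeded sham by 3.95 points (two-sided exact permutation test, p = 0.486, adjusted over 4 comparisons p = 0.686). Day 14 lay 2.30 points below sham (difference -2.30, exact p = 0.83, adjusted p = 0.83) and 6.25 below day 2 (difference -6.25, exact p = 0.514, adjusted p = 0.686). With 4 libraries against 4 the smallest p possible was 0.0286.

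In aged mice the share was 15.4% and 24.0% in sham, 9.52%, 29.1% and 0% at day 2 and 32.5% at day 14 (95% exact binomial interval 22.6 to 43.7, counting error only). The library at 0% held 6 BAM, and a count of 0 allows up to 3 of them, 50% (exact binomial upper limit 45.9%). The BAM of the aged day 14 library are those with the low Apoe and core marker levels given above, and whether its labels cover the same cells as elsewhere was not tested. The means of 19.7% ± 6.06 (n = 2) and 12.9% ± 14.8 (n = 3) gave a difference of -6.80 points (exact permutation p = 0.5, adjusted p = 0.686, smallest possible 0.1). The difference between the aged and the young response was -10.8 points (exact permutation p = 0.366).

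As a share of all cells, BAM3 was 0.722%, 0.997%, 0.755% and 0.0263% in young sham, 0.395%, 0.240%, 0.0579% and 0.690% at day 2, and 0.101%, 0.227%, 0.225% and 0.0391% at day 14. Means were 0.62%, 0.346% and 0.148%. The first 3 sham libraries lay above all day 14 libraries and sham replicate 4 below them, and the exact test gave p = 0.143 for day 14 against sham, p = 0.314 for day 2 against sham and p = 0.2 for day 14 against day 2. None passed after adjustment (lowest adjusted p = 0.4). The sort fixes the other cells in this denominator.

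**Figure D3:**
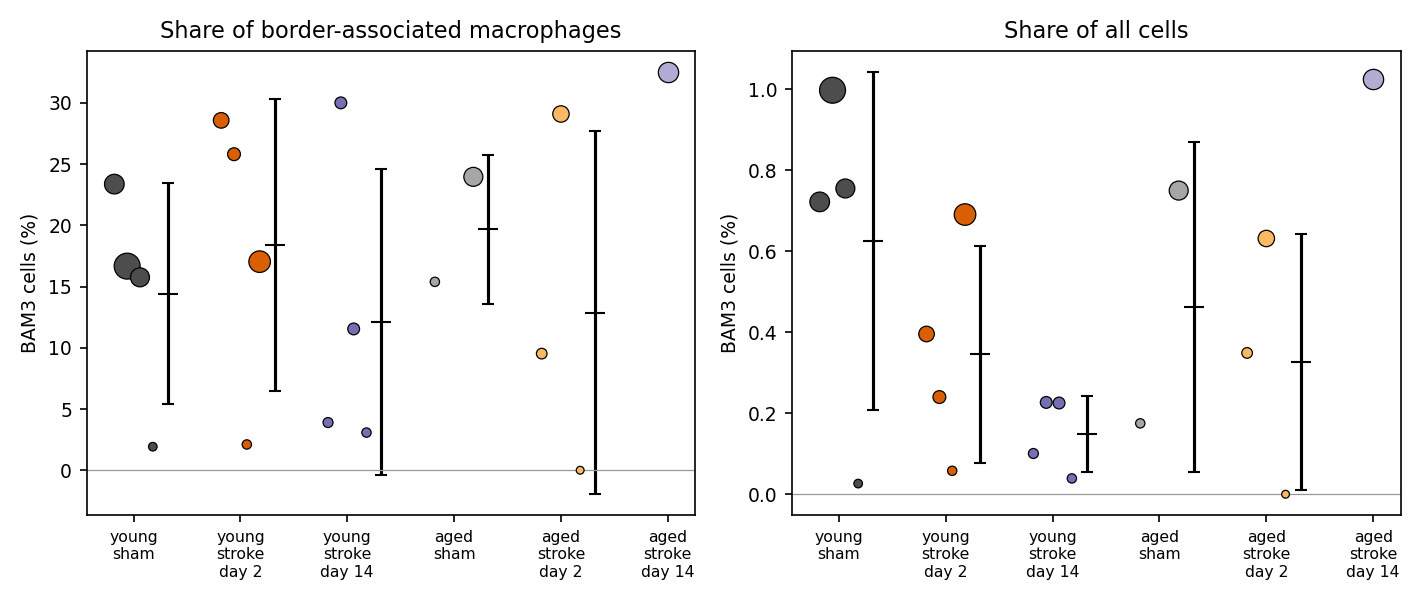
BAM3 cells as a percentage of BAM (left) and of all annotated cells (right) in each library, by group; point size grows with the number of BAM3 cells, and bars give mean and SD where a group has more than 1 library. The young stroke groups and the aged stroke group of day 2 overlap their sham groups in both panels, and the single aged day 14 library (32.5% and 1.02%) lies above both aged sham libraries.

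Within BAM3, 2 genes rose at day 2 after stroke in young mice. The comparison used libraries with at least 10 cells, sham replicates 1 to 3 (95 cells) and day 2 replicates 1 and 4 (45 cells). edgeR's quasi-likelihood test called 2 of 158 genes tested (1.27%) at an adjusted p under 0.05, both higher, and 18 had an unadjusted p under 0.05. Ifi27l2a, an interferon-induced gene, was at 108, 171 and 415 CPM in the sham libraries and at 3252 and 8909 CPM at day 2. Ccl8, a chemokine ligand of monocytes, was at 108, 57.5 and 0 CPM in sham and at 2585 and 2495 CPM at day 2. The groups did not overlap for either gene, as for 49 of the 158 genes (31.0%). The log2 changes were 4.66 ± 0.72 (SE) for Ifi27l2a and 5.10 ± 0.72 for Ccl8, both with an edgeR adjusted p of 0.0236. The sham sums behind these were 6.96 counts of Ifi27l2a and 2.00 counts of Ccl8. With so few sham counts, both genes passed the filter on low counts only through the day 2 libraries, where they were high.

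Both calls rested on few cells and mostly on 1 library, the one with the highest monocyte list level; the part of other cells in them was not tested. Young stroke day 2 replicate 4 held 439 of the 456 day 2 counts of Ifi27l2a, found in 16 of its 31 cells. For Ccl8 it held 123 of 136 counts, and 1 cell carried 62.3% of the day 2 counts. Without that library day 2 was left with 1 library of 14 BAM3 cells, so that fit could not decide whether the calls held. Without sham replicate 2 edgeR's adjusted p was 0.189 and 0.152, and neither gene was called. The log2 changes stayed between 3.74 and 5.31 for Ifi27l2a and between 4.78 and 5.63 for Ccl8 when each of the 5 libraries was left out. With a minimum of 5 cells Ccl8 was still called (edgeR adjusted p = 0.0301) and Ifi27l2a was not (4.22, edgeR adjusted p = 0.0503). In cells of at most 500 counts the pooled level of Ifi27l2a was 286 CPM in sham and 2793 CPM at day 2, with a log2 change of 2.94 and an edgeR adjusted p of 0.292. Ccl8 was not called in those cells either. DESeq2 called both genes and also Apoe (log2 change -1.33, adjusted p = 0.0295). In cells of at most 500 counts, 35 of the 45 day 2 cells, Apoe was not lower: it stood at 77441 CPM at day 2 and 70437 CPM in sham.

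Libraries outside the fit gave further values. Among young mice, day 2 replicate 2 held 773 CPM of Ifi27l2a in 8 cells and replicate 3 held 0 in 2 cells. The 4 day 14 libraries, with 17 cells, held 1301, 903, 5693 and 5180 CPM. In aged mice the sham libraries held 0 and 1028 CPM, the day 2 libraries 5161 and 6643 CPM and the day 14 library 648 CPM. Most of these rest on few counts: day 2 replicate 2 on 1.82 and day 14 replicates 1, 2 and 4 on 1.91, 2.81 and 2.23, while day 14 replicate 3 had 20.4. Both aged day 2 libraries with BAM3 cells exceeded both aged sham libraries, on 7.90 and 32.2 counts. Ccl8 was at 2279 CPM in the aged female day 2 library and at 0 in the aged male day 2 library (4 cells), in both aged sham libraries (25 cells) and in the aged day 14 library (27 cells). In young day 14 replicates 2 and 3, the day 14 libraries with at least 5 cells, Ccl8 was at 767 and 668 CPM. BAM1 also held more Ifi27l2a after stroke, 887 to 2307 CPM at day 2 against 24.5 to 709 CPM in young sham. Microglia moved in the same direction, from 7.98 to 24.9 CPM in young sham to 261 to 1753 CPM at day 2. Endothelial cells held 16.2 to 88.0 CPM at day 2. The part of free RNA in the BAM3 values was not tested.

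**Figure D4:**
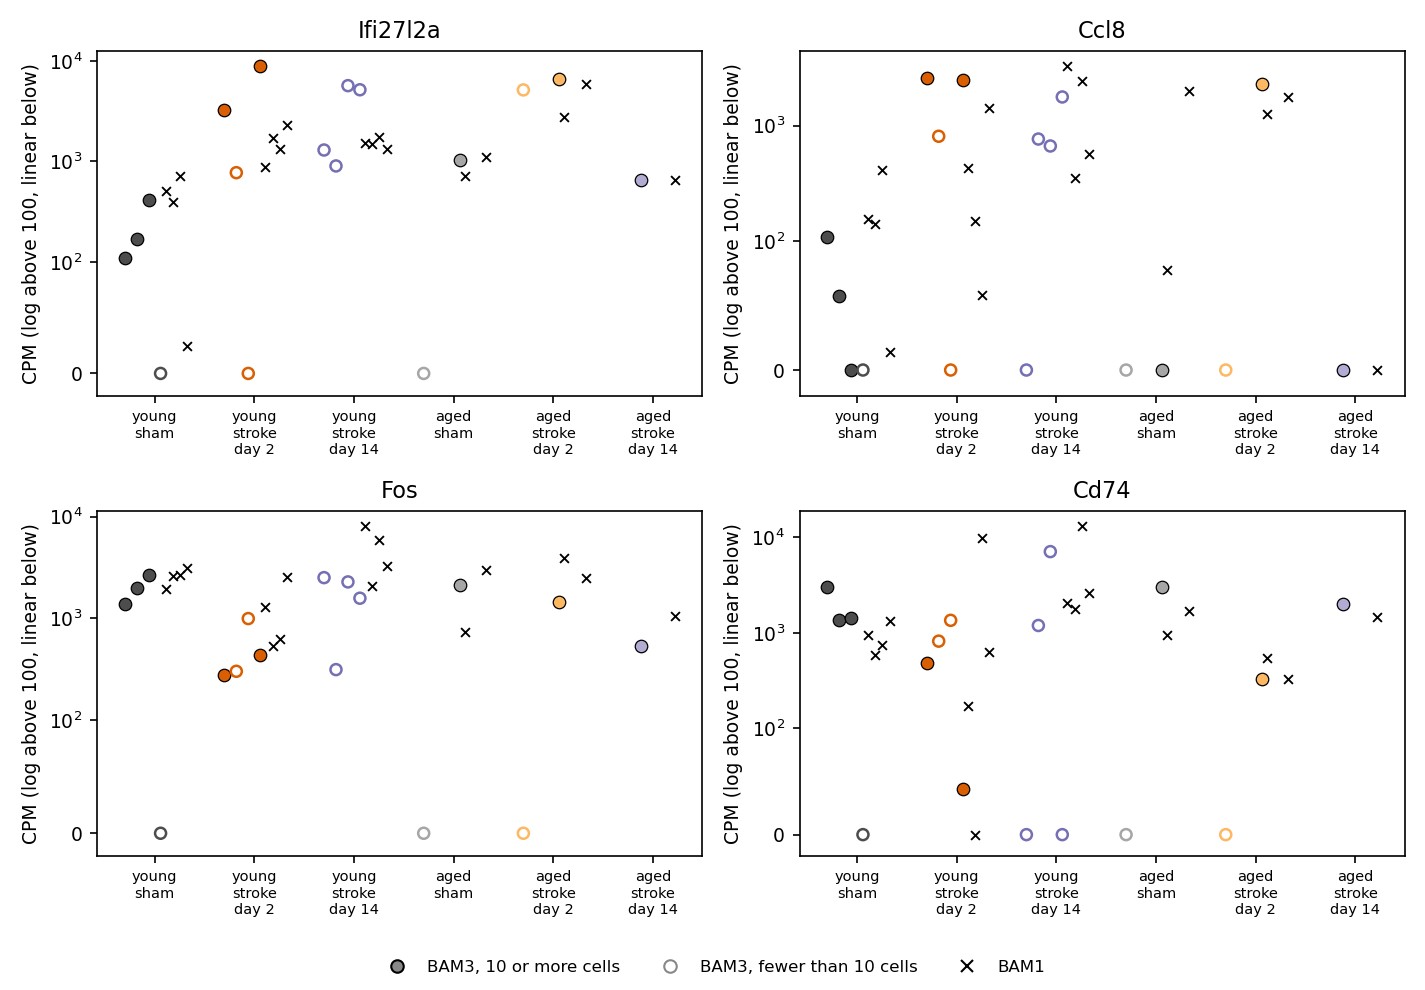
CPM of 4 genes in BAM3 (circles, filled where a library had at least 10 BAM3 cells and open where it had fewer) and in BAM1 (crosses) by group; the y axis is linear below 100 CPM and logarithmic above. Filled day 2 circles lie above the filled sham circles for Ifi27l2a and Ccl8 and below them for Fos and Cd74 in young mice.

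No gene of another list passed the test at day 2. Fos fell short with 1378, 1981 and 2690 CPM in sham against 277 and 443 CPM at day 2 (log2 change -2.52 ± 0.58, edgeR adjusted p = 0.159). Jun was at 3149 CPM on average in sham and 815 CPM at day 2 (edgeR adjusted p = 0.272). Cd74 was at 3010, 1362 and 1430 CPM in sham against 486 and 43.3 CPM (log2 change -3.97 ± 1.05, edgeR adjusted p = 0.208). Lgals1, encoding galectin-1, was at 1083, 909 and 414 CPM in sham against 2388 and 6649 CPM (log2 change 2.34 ± 0.57, edgeR adjusted p = 0.172). The libraries of the groups did not overlap for these 4 genes, nor for Mrc1, which 31.0% of all genes tested shared. Among the lists, 8 of 12 core BAM genes and 9 of 12 lysosomal genes entered the test with median log2 changes of 0.05 and 0.61, against 0.07 over all 158 genes (0.28 when scaled by library size alone), and none was called. Mrc1 averaged 6227 CPM in sham and 2944 CPM at day 2 and Pf4 4142 and 6226 CPM, with edgeR adjusted p of 0.423 and 0.822.

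The summed immediate early level was lower at day 2 in these libraries, with 1 library per group in aged mice. It was 6629, 9368 and 15672 CPM in BAM3 of young sham and 3334 and 2811 CPM at day 2, 12090 CPM in aged sham and 2623 CPM in aged stroke at day 2. In the other BAM of these libraries the sums were 13609, 14810 and 18641 CPM, then 5726 and 15426 CPM, then 19639 and 12812 CPM. In the other BAM day 2 replicate 1 also lay below the sham libraries and replicate 4 did not, and the difference between BAM3 and the other BAM in this sum was not tested. The MHC class II sum in BAM3 was 6845, 3143 and 3265 CPM in young sham, 826 and 103 CPM at day 2, 6613 CPM in aged sham and 424 CPM in aged stroke at day 2. It was lower at day 2 in the other BAM too, with 25891, 19927 and 22996 CPM, then 7438 and 16402 CPM, then 29839 and 3208 CPM.

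The difference between the response of BAM3 and that of the other BAM was tested in one model with a term for each library. It called 7 of 1263 genes (0.554%) by edgeR's adjusted p, 1 with a higher and 6 with a lower response in BAM3. These p-values draw on a spread that edgeR estimated over all genes together. They do not measure each gene's own spread between libraries alone. The Ifi27l2a response was larger in BAM3 by 3.22 ± 0.60 on the log2 scale (SE, edgeR adjusted p = 6.44e-05), with the other BAM at 849, 608 and 662 CPM in sham and 1088 and 3228 CPM at day 2. Cd74 (-3.43), H2-Aa (-3.95), H2-Eb1 (-4.18) and H2-Ab1 (-7.23) had lower responses, with edgeR adjusted p of 5.6e-05, 0.0014, 0.0153 and 0.00161. Cd74 in the other BAM was at 11149, 9004 and 9942 CPM in sham and 2969 and 7656 CPM at day 2, so it was lower after stroke there too. Apoe (-1.15, edgeR adjusted p = 0.0042) was at 48640 and 19741 CPM at day 2 against 63886 to 78793 CPM in sham in BAM3, and at 39274 and 45222 against 35541 to 50601 CPM in the other BAM. The BAM3 fall was not seen in the shallow cells given above. Tsc22d3, a glucocorticoid-induced gene, was at 0 CPM in both day 2 libraries of BAM3, so its fitted value of -7.56 (edgeR adjusted p = 0.00559) depends on the prior count. H2-Ab1 was likewise at 0 there.

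The calls depended on several libraries. Apoe, H2-Eb1 and Tsc22d3 were lost in 4 of 5 fits that left out 1 library, H2-Ab1 in 3, H2-Aa in 2, and Cd74 and Ifi27l2a in 1. Leaving out either day 2 library left 1 in that group, so those fits could not decide whether a gene passed. Without young stroke day 2 replicate 4, the day 2 library left held 14 BAM3 cells. The estimates then shrank to -0.35 for Cd74, -0.60 for H2-Eb1, -1.65 for H2-Aa and -0.76 for Apoe, while Ifi27l2a was at 2.86, H2-Ab1 at -5.58 and Tsc22d3 at -6.41, the last 2 still with no day 2 count in BAM3. The other BAM are a mixture whose makeup changed with the library, from 11 BAM1 and 10 BAM2 cells in young stroke day 2 replicate 1 to 141 and 82 in young sham replicate 2. Set against BAM1 alone, Ifi27l2a (3.18, edgeR adjusted p = 0.00449), Apoe (-1.34, edgeR adjusted p = 0.00135) and Fos (-2.22, edgeR adjusted p = 0.0365) passed. Cd74 was at -3.66 with an edgeR adjusted p of 0.0525. H2-Aa, H2-Eb1 and H2-Ab1 were at -4.05, -4.06 and -3.42, with edgeR adjusted p of 0.219, 0.77 and 0.928. The estimates of Cd74, H2-Aa and H2-Eb1 were thus close to those against all other BAM (-3.43, -3.95 and -4.18). That of H2-Ab1 was smaller in size than against all other BAM (-7.23). The standard errors of all 4 genes were larger against BAM1. The subtypes were formed on the expression of the same cells, and the part of that choice in these differences was not tested.

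At day 14 no young library held 10 BAM3 cells, so the comparison was made only with a minimum of 5 cells, which left replicates 2 and 3 of day 14 with 12 cells. edgeR called none of 120 genes (0%) against sham, with 9 at an unadjusted p under 0.05, and none against day 2, with 8. The smallest adjusted p were 0.18 (edgeR, Jun against sham) and 0.132 (edgeR, Lyve1 against day 2). Jun averaged 140 CPM at day 14 and 3149 CPM in sham, and Ifi27l2a 3298 and 231 CPM (edgeR adjusted p = 0.3). Lyve1 had no count in either day 14 library and averaged 915 CPM in sham (edgeR adjusted p = 0.352). H3f3b, a histone gene, and Rnase4, a secreted ribonuclease, were next by p, both with an edgeR adjusted p of 0.567. Aged mice had 1 library of each group past that minimum, and no comparison was made within BAM3.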

How the data were processed

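Brain libraries of the series were used and the blood libraries were not analysed here. The authors deposited estimated counts per gene and cell with an annotation table giving parent type and subtype, and the values are not whole. The deposited count totals per cell, genes per cell and percent of mitochondrial counts came from the same tables. The submitters' processing notes name Seurat and build mm10, with no versions; aligner and counter are not given in the sources used here. Libraries held 819438 to 5855047 counts in 1143 to 5121 annotated cells.

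Counts were summed per library and subtype, rounded, and tested with edgeR 4.0.16 (quasi-likelihood, TMM, filterByExpr, Benjamini-Hochberg adjustment over all genes tested, threshold 0.05) in R 4.3.3. The minimum of 20 cells per library was lowered to 10, and to 5 for day 14, as it left too few libraries. CPM values were computed from the deposited counts summed over the cells of a subtype in a library. Shares were compared with two-sided exact permutation tests over libraries, adjusted over 4 comparisons. The exact binomial intervals came from SciPy 1.17.1. DESeq2 1.42.0, other normalizations and filters, other cell minimums and left-out libraries were alternatives. The fits were tested on simulated data, where the fit of the difference in response missed most of the changes put in. A scanpy 1.11.5 doublet caller marked 20 cells (0.0362%) and no BAM, so it did not work and no doublets were removed. The replicate numbers were not taken as pairs: 4 of 12 same-numbered pairs correlated above 0.1, 3 of them among the 4 between day 14 and day 2.

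Genes named for BAM3 against the other BAM were the 20 highest and 10 lowest mean log2 ratios averaging 100 CPM or more on the higher side, with the same sign in at least 3 of 4 libraries. Genes named between conditions were called genes averaging 20 CPM or more whose libraries did not overlap, beside members of the lists. Predicted, mitochondrial, ribosomal, haemoglobin and immunoglobulin genes were not named, nor genes found at more than 10 times the BAM3 level in any other brain type with 500 cells or more, unless in a list. The members, lists and rules were chosen with earlier results of these data known. Promoter sequences are from RefSeq, build GRCm38.p6.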

Additional observations from a re-analysis of the deposited data

Results flagged for a closer look

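The response to stroke at day 2 in young mice differed between BAM3 and the other BAM for 7 genes by the test of the difference itself, on the log2 scale. Ifi27l2a responded more in BAM3 (3.22). Cd74 (-3.43), H2-Aa (-3.95), H2-Eb1 (-4.18), H2-Ab1 (-7.23), Apoe (-1.15) and Tsc22d3 (-7.56) had a lower response in BAM3. Without young stroke day 2 replicate 4, which left 1 day 2 library, the values were -0.35 for Cd74, -1.65 for H2-Aa, -0.60 for H2-Eb1, -0.76 for Apoe, -5.58 for H2-Ab1, -6.41 for Tsc22d3 and 2.86 for Ifi27l2a. Their causes were not tested.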

How the results depend on the processing

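No share comparison passed its threshold under any of the 80 alternatives run, and 71 kept their direction; the aged comparison (smallest possible p 0.1) and the sign-flip tests of 4 pairs could not pass, so this is no sign of stability. Among cells of at least 800 counts the differences in share of BAM became 6.16 points (day 14 against sham) and 4.26 (day 14 against day 2), and that in the share of all cells 0.00243 (day 2 against sham). At that depth young day 14 replicates 2 and 3 held 1 BAM3 cell each, among 4 and 26 BAM, and replicates 1 and 4 held none. Leaving out 1 library at a time gave differences in the share of BAM from -0.216 to 9.38 points (day 2 against sham), -8.26 to 0.718 (day 14 against sham), -12.2 to -2.85 (day 14 against day 2) and -14.9 to -0.364 (aged). Within these, day 14 against sham turned to 0.68 without young sham replicate 1, 0.445 without day 14 replicate 1 and 0.718 without day 14 replicate 4, and day 2 against sham to -0.216 without sham replicate 4. In the share of all cells only the aged difference turned, to 0.152 without the female sham library and 0.0277 without female day 2 replicate 2 (range -0.423 to 0.152). The young ranges were -0.479 to -0.155 (day 2 against sham), -0.677 to -0.353 (day 14 against sham) and -0.294 to -0.0832 (day 14 against day 2). Without sham replicate 4, day 14 against sham had an exact p of 0.0286 (adjusted 0.114). Day 14 against day 2 had the same exact p and adjusted p without young stroke day 2 replicate 3 (difference -0.294). With the replicate number as a block, sign-flip tests of the share of BAM gave an exact p of 0.5 (difference 3.95), 0.75 (-2.30) and 0.5 (-6.25). The block changed no other call. A blocked fit of expression was not possible with sham numbers 1 to 3 and day 2 numbers 1 and 4.

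Genes more than 2-fold higher and lower in BAM3 numbered 2 and 115 with 50 CPM added, 35 and 113 by the ratio of mean CPM and 65 and 115 in cells of at most 500 counts; the last 2 choices were made after seeing the data. Without 1 library they ran from 9 to 15 and from 169 to 206, where 6 of 7 libraries had still to share the direction. With 1 CPM added, each of the lowest genes named above had a lower mean log2 ratio, such as -4.52 for Ier2 in place of -3.25. The day 2 calls numbered 7 without the filter, 1 with a minimum of 5 cells, 0 in cells of at most 500 counts and 0 to 15 without 1 library. Calls in the difference of the responses numbered 2 without the filter, 3 against BAM1 alone and 0 to 5 without 1 library. Some of these fits held a single day 2 library, since leaving out either day 2 library left 1 in that group. A minimum of 40 cells left too few libraries and was not run, nor were the alternatives that remove doublets. The fit of only the compared groups is the one reported. In the 8 libraries with at least 10 cells 3 counts were worth 60.9 to 618 CPM, and more in the smaller libraries, so a level under that could not be told from 0 in a single library.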
